A study of Mus musculus with 123 samples.

Results

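ES1 is one of 3 peak lists deposited for a whole series on histone H3 lysine 4 (H3K4) methylation. Its name matches no sample label, and it is read here as a subpopulation of mouse embryonic stem cells. Its members are all peaks of that list on chromosomes 1 to 19, which gave 25878 of the 60226 peaks that the 3 lists hold with chromosome X. The series used a droplet form of chromatin immunoprecipitation sequencing: single cells are caught in drops, their chromatin is tagged with a barcode of DNA, and the tagged chromatin of many cells then goes through the antibody step together. Per the labels there are 123 libraries, 86 for H3K4me2 and 37 for H3K4me3, from mESC (mouse embryonic stem cells of the V6.5 strain), MEF (embryonic fibroblasts from Globalstem) and EML, a line of blood progenitors. The stem cells grew in serum with LIF, a cytokine that keeps them from differentiating. Of these libraries, 59 hold H3K4me2 from mESC alone, 3 hold H3K4me2 from MEF alone, and the others pool or mix 2 kinds of cells. The sources used here do not say which libraries, mark or number of cells lie behind ES1, nor how cells were placed in it. Where cells were placed by the same profiles that the peaks come from, that choice sets some of what differs between lists. Each list stands for 1 set of cells with no replicate, so differences between lists come without p-values, and the 95% intervals given in parentheses cover counting error only.

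Methylation of H3K4 is laid down by enzymes of the MLL and SET1 families. The trimethyl form sits at promoters of active genes and of genes poised for later use, and the dimethyl form also covers enhancers. In embryonic stem cells it marks the genes that hold pluripotency together with many silent regulators of development, where it can lie beside the repressive mark of the Polycomb complexes. Wide domains of the mark are known at regulators of cell identity and at CpG-rich developmental genes. The defining markers of the stem cell state, Pou5f1, Sox2, Nanog and Esrrb, encode transcription factors of the pluripotency network. The peaks carry positions of the mm9 build and no gene names, and no gene models of that build were used here. The stem cell label of ES1 was therefore not checked against these markers, marked developmental and pluripotency genes were not looked up, and regions are named by position alone.

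ES1 peaks were mostly narrow, with a long tail of wide domains. The 25878 peaks covered 63.3 Mb, or 2.56% of the 2472 Mb of chromosomes 1 to 19. The median peak was 1693.5 bp wide (interval 1676 to 1714), the middle 50% of peaks lay between 972 and 2862 bp, and 1% were wider than 13297 bp. No peak was narrower than 500 bp, and 1040 peaks (4.02%) had exactly that width. Peaks under 1 kb made up 26.0% of the list and 7.08% of its covered length. At the other end, 2597 peaks (10.0%, 9.67 to 10.4) reached 5 kb and held 34.8% of the covered length, and 557 peaks (2.15%, 1.98 to 2.34) reached 10 kb and held 13.2%.

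Wide domains set ES1 apart from the other lists more than the width of a typical peak did. The median width was 1667 bp in ES2 (1651 to 1685) and 1525 bp in ES3 (1502 to 1548). ES1 had 557 peaks of 10 kb or more, against 234 for ES2 and 43 for ES3, on 2398602, 2663168 and 2387552 reads recovered from the authors' scores. ES1 and ES3 thus rested on nearly the same depth, yet 23.1% of ES1 reads and 8.99% of ES3 reads fell in the inner intervals of peaks. With each list shortened to the 12239 peaks of ES3, ES1 had more peaks of at least 5 kb than ES3: 1989 against 443 when ranked by reads and 830 against 443 when ranked by score. The median width did not keep its order under that shortening, with 2442 bp for ES1 by reads but 1094 bp by score, against 1525 bp for ES3. This shortening left ES3 whole, and each ranking selects on width in ES1. Reads rose with width (Spearman's rho = 0.63), so ranking by reads keeps wide peaks, while the score fell with width (rho = -0.43).

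**Figure D1:**
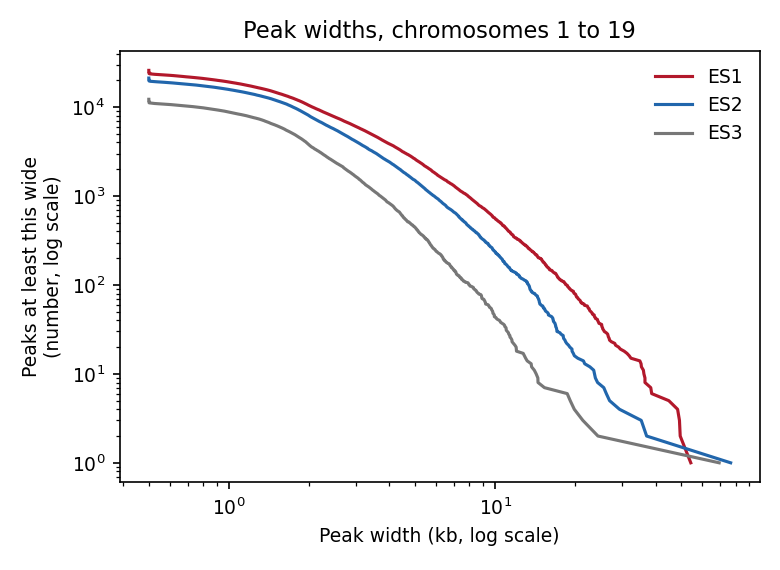
Number of peaks (log scale) at least as wide as the width on the horizontal axis (kb, log scale), for the 3 lists on chromosomes 1 to 19. The ES1 curve lies above the others up to its widest peaks, with 557 peaks of at least 10 kb against 234 in ES2 and 43 in ES3, and ends at 54241 bp, short of single wider peaks in the other lists.

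Within ES1, wider peaks held more reads, while read density was not higher in them. Reads are counted over the inner interval that the authors give for each peak, which starts at the peak's start. The median peak held 11 reads among peaks under 1 kb, 15 at 1 to 2 kb, 23 at 2 to 5 kb, 41 at 5 to 10 kb, 47 at 10 to 20 kb and 114.5 at 20 kb or more. The median density was 19.6 reads per kb in the narrowest class and between 11.7 and 13.0 in the other 5, beside a mean of 0.970 reads per kb over the chromosomes. Across peaks, width was related to reads with Spearman's rho = 0.63 and to the authors' score, a relative density, with rho = -0.43, which are descriptions over 25878 peaks of the same libraries. No ES1 peak held fewer than 8 reads, so the lowest density a peak could have was higher the shorter its inner interval. The part of this floor in the density of the narrowest class and in the relation of score to width was not tested. The inner interval filled the whole peak in 58.8% of ES1 peaks but in 30.5% of those of at least 10 kb. It took up less than 10% of the width in 157 of these 557 domains, so the reads in most of such a domain are unknown.

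The widest ES1 peak was chromosome 12, 111707558 to 111761798, a single peak of 54241 bp with 493 reads (450 to 539). ES2 covered 60.5% of it with 7 peaks and ES3 29.9% with 6. The same pattern held at chromosome 7, 29702773 to 29751959, a peak of 49187 bp with 539 reads (494 to 586), where ES2 had 6 peaks over 80.9% of the bases and ES3 had 6 over 43.4%. At chromosome 14, 22361966 to 22406816, the ES1 peak spanned 44851 bp with 395 reads (357 to 436), and ES2 and ES3 each had 5 peaks there, over 77.4% and 32.0%. These 3 domains had inner intervals as long as the peaks, so their reads are known throughout.

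Other wide ES1 domains rested on short inner intervals. Chromosome 15, 77625424 to 77673819, spanned 48396 bp but its 103 reads (84.1 to 125) fell in 6458 bp, and ES3 covered 41.3% of it with 7 peaks. Chromosome 9, 114431137 to 114469821, spanned 38685 bp with 72 reads (56.3 to 90.7) in 7128 bp, and ES3 covered 75.9%. Chromosome 12, 103913639 to 103952015, spanned 38377 bp with 14 reads (7.65 to 23.5) in 901 bp. Chromosome 8, 123032033 to 123068534, spanned 36502 bp with 31 reads (21.1 to 44.0) in 1412 bp, and ES2 and ES3 covered 73.3% and 75.8% of it. The second widest peak, chromosome 11, 3032726 to 3082229, differed from the rest of the 8 widest: its 49504 bp were covered in full by 1 peak of ES2 and 1 of ES3.

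The widest ES1 domains were often split into several peaks in the other lists. Among the 557 ES1 domains that wide, 357 (64.1%, 60.0 to 68.1) met 2 or more ES2 peaks and 341 (61.2%, 57.0 to 65.3) met 2 or more ES3 peaks. The reverse was less frequent by count: of the 234 ES2 peaks of that width 64 met 2 or more ES1 peaks, and of the 43 of ES3, 4 did. Over peaks of any width, 7.34% (6.83 to 7.87) of the ES1 peaks that met ES3 met more than 1 of its peaks, against 0.451% (0.333 to 0.598) of the ES3 peaks that met ES1. Wider peaks meet more peaks by their length alone, and ES1 had the wider peaks. Absence of a peak between 2 ES3 peaks does not show absence of the mark there.

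Few wide domains were missing elsewhere: 1 of the 557 met no ES2 peak and 20 met no ES3 peak. The widest of these 20 were chromosome 4, 154556449 to 154576443, with 89 reads (71.5 to 110) in 8408 bp of its 19995 bp, chromosome 1, 154736344 to 154752705, with 17 reads (9.90 to 27.2) in 1437 of 16362 bp, and chromosome 3, 34650071 to 34666192, with 9 reads (4.12 to 17.1) in 500 of 16122 bp. They were chosen after their values were seen. ES2 had peaks in each, over 57.7%, 63.8% and 61.4% of the bases.

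ES2 met 61.4% (60.8 to 62.0) of all ES1 peaks and ES3 37.9% (37.3 to 38.5), and both shares climbed with peak width. For ES3 the share was 20.4% (19.5 to 21.4) of peaks under 1 kb, 29.9% (29.0 to 30.9) at 1 to 2 kb, 47.9% (46.8 to 49.0) at 2 to 5 kb, 75.4% (73.5 to 77.2) at 5 to 10 kb and 95.8% (93.6 to 97.4) at 10 to 20 kb. All 78 ES1 peaks of 20 kb or more met both lists. For ES2 the share went from 40.7% (39.5 to 41.9) under 1 kb to 99.8% at 10 to 20 kb. A wide peak meets another list more often by its length alone, and when at least 50% of both peaks had to be shared, the ES3 share was 11.9%, 20.1%, 25.3%, 21.3%, 15.7% and 7.69% from the narrowest to the widest class. That rule asks for a single ES3 peak that covers 50% of the ES1 peak. ES3 had 43 peaks of at least 10 kb, which limits how many ES1 peaks of the widest class could pass. By bases, ES3 covered 16.6% of the narrowest class and 39.7% of peaks of 10 to 20 kb, and this measure climbed through each of the 6 classes.

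The peaks with the most reads were of 2 kinds. Some were the wide domains already given, together with chromosome 12, 87803620 to 87840116, where 397 reads (359 to 438) spread over 36497 bp at 10.9 reads per kb. Others were short places of extreme density. Chromosome 17, 39979971 to 39985619, held 1087 reads (1023 to 1154) in 5649 bp, the most of any ES1 peak. Chromosome 2, 98502389 to 98507456, held 579 (533 to 628) in an inner interval of 668 bp, chromosome 9, 35112681 to 35113184, held 504 (461 to 550) in 500 bp, and chromosome 12, 3109698 to 3110227, held 414 (375 to 456) in 501 bp.

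The last 3 of these short places carried the highest scores of ES1, and the 5 peaks of highest score were each met by a peak in ES2 and ES3. The scores were 1044 at the chromosome 12 place, 954 on chromosome 9, 808 on chromosome 2, 379 at chromosome 6, 103598901 to 103599400, and 264 at chromosome 15, 74915940 to 74917354, against an ES1 median of 14.5. ES3 had more reads than ES1 at the first 3 places, 1085 on chromosome 12, 1399 on chromosome 2 and 1549 on chromosome 9, the last over a longer inner interval of 953 bp. ES2 also had more reads than ES1 there, 772 on chromosome 12, 1142 on chromosome 2 and 1057 on chromosome 9. Its chromosome 2 value came from a longer inner interval of 1839 bp. At the chromosome 6 place ES1 had 186 reads, ES2 293 and ES3 397. Sequence of these places was not analysed here, so whether repeated sequence bears on their reads was not tested. Without the 9 loci shared by the top 10 scores of each list, the ES1 median width was 1694 bp.

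ES1 peaks lay close to one another. The median gap between neighbours was 16471 bp (16060 to 16870), beside an average of 95538 bp of chromosome per peak. The former is a median and the latter a mean over the whole length, so they are unlike measures. The average was 116609 bp in ES2 and 202005 bp in ES3, and their median gaps also lay below it. In ES1 20.5% of gaps were at most 5 kb and 42.8% at most 12500 bp. The median gap was 19975 bp (19385 to 20484) in ES2 and 32345 bp (30969 to 33785) in ES3, lists with fewer peaks. That order did not hold with each list shortened to 12239 peaks. The ES1 median gap was then 32012 bp when ranked by reads and 45552.5 bp when ranked by score, against 32345 bp in ES3. Gaps under 1 kb were rare in ES1, at 0.309% of all.

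**Figure D2:**
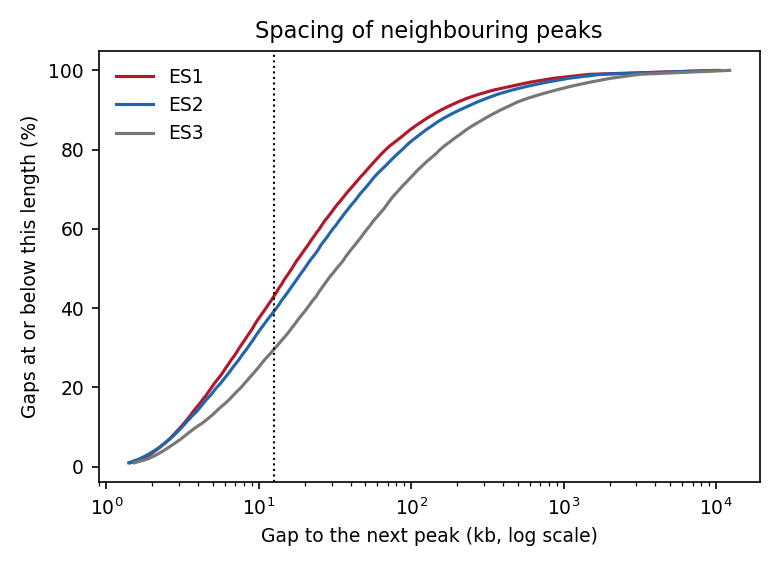
Share of gaps between neighbouring peaks (%) at or below the length on the horizontal axis (kb, log scale), from the 1st to the 100th percentile of each list. The dotted line marks 12500 bp, where the curves stand at 42.8% for ES1, 39.1% for ES2 and 29.5% for ES3.

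The share of ES1 peaks in clusters depended on the gap allowed. Joining peaks whose gap was at most 12500 bp gave 5049 clusters of 2 or more peaks, which held 16129 peaks or 62.3% (61.7 to 62.9) of the list, and left 9749 peaks alone. With gaps of at most 5 kb the share was 34.8%. Clusters of at least 5 peaks numbered 783, and 94 clusters had at least 10 peaks and held 1119 in all. The share in clusters was 57.9% (57.3 to 58.6) in ES2 and 46.7% (45.8 to 47.5) in ES3. That order did not hold once each list was shortened to 12239 peaks: ranked by reads the share was 46.7% in both ES1 and ES3, and ranked by score 35.1% in ES1 and 46.7% in ES3.

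The cluster with the greatest covered length was chromosome 13, 44745802 to 44948843, where 21 ES1 peaks covered 114369 of 203042 bp (56.3%). ES2 had 20 peaks and ES3 15 over the same span, with 78099 and 35917 bp covered. Chromosome 12, 103830435 to 103999899, followed with 11 peaks over 112152 bp, and ES2 and ES3 had 17 and 14 peaks there with 85805 and 45280 bp. Chromosome 14, 22276375 to 22406816, was the most filled of the 6 largest, with 5 peaks over 81.5% of its span, where ES2 had 13 peaks and ES3 12. In the last 2 clusters ES1 had fewer peaks than either list over a greater covered length. The clusters were chosen for, and bounded by, their ES1 peaks, which favours ES1 in such values.

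The next clusters by covered length were chromosome 3, 88287386 to 88453172, with 14 peaks over 101009 bp, chromosome 4, 132500635 to 132691632, with 20 peaks over 82726 bp, and chromosome 8, 122980854 to 123114165, with 11 peaks over 81478 bp. ES3 covered 35540, 40362 and 41643 bp of these spans. By number of peaks the largest cluster was chromosome 6, 72660963 to 72851986, with 23 ES1 peaks, where ES2 had 21 and ES3 15. Chromosome 1, 138449835 to 138630193, held 21 ES1 peaks, 15 of ES2 and 12 of ES3, as many ES1 peaks as the chromosome 13 cluster.

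Peaks in clusters were wider than peaks alone. The median width was 1401 bp (1370 to 1425) for peaks alone, 1746 bp (1713 to 1777) in clusters of 2 to 3, 2152 bp (2098 to 2214) in clusters of 4 to 9 and 2195 bp (2034 to 2316) in clusters of 10 or more. Peaks of at least 5 kb made up 4.10%, 9.31%, 18.3% and 19.3% of these classes. Clustered peaks were also met by ES3 more often, 49.9% (46.9 to 52.8) in clusters of 10 or more against 32.3% (31.3 to 33.2) alone. Among peaks of 1 to 2 kb, where the median widths of the classes lay between 1452 and 1515 bp, the difference was smaller: 36.3% (31.0 to 42.0) of the 311 peaks in clusters of 10 or more and 29.8% (28.3 to 31.3) of the 3677 alone. The share was 29.2% in clusters of 2 to 3 and 30.4% in clusters of 4 to 9. The first 2 intervals overlap, which is no test of the difference, and peaks of the same cluster are not independent.

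Isolated ES1 peaks were few. The nearest neighbour was more than 100 kb away on both sides for 1472 peaks (5.69%). They were narrower, with a median of 1214 bp (1162 to 1267) against 1738 bp (1716 to 1755) for the others, and 1.36% reached 5 kb against 10.6%. Their reads were close, with medians of 14 and 16. ES2 met 51.7% (49.1 to 54.3) of the isolated peaks and 62.0% (61.4 to 62.6) of the others, or 35.2% and 38.2% when at least 50% of both peaks had to be shared. The part of width in this difference was not tested.

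Peak-rich and peak-poor megabases differed widely. The first 3 Mb of each chromosome, a stretch near the centromere that genome assemblies of the mouse leave unfilled, held no peak in any list and is left out here. Over the 2406 whole megabases that remain, ES1 had a mean of 10.7 peaks, a median of 6 and a maximum of 73. No ES1 peak lay in 500 of them (20.8%, 19.2 to 22.5), and 493 held 20 or more. The richest 10% of megabases held 37.1% (36.5 to 37.7) of ES1 peaks and 43.6% of the covered length, and the poorer 50% held 7.29% of peaks. ES3 had 783 empty megabases (32.5%, 30.7 to 34.5). With ES1 shortened to the 12239 peaks of ES3, its empty share was 32.0% when ranked by reads and 27.6% when ranked by score, against 32.5% in ES3.

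**Figure D3:**
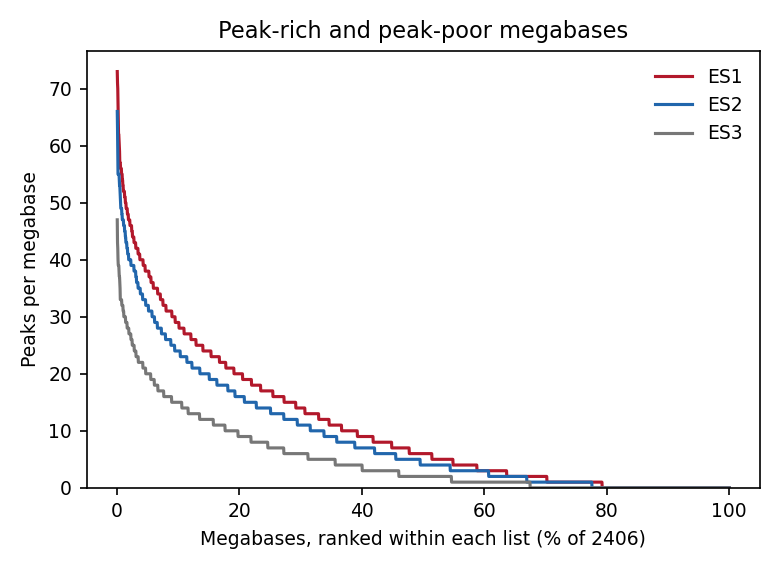
Peaks per megabase for the 2406 megabases, ranked from the richest to the poorest within each list (horizontal axis, % of megabases). ES1 goes from 73 peaks in its richest megabase to 0 in the last 20.8%, ES2 from 66 to 0 in 22.4% and ES3 from 47 to 0 in 32.5%.

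The richest megabase lay between 52 and 53 Mb of chromosome 7, with 73 ES1 peaks, 66 of ES2 and 47 of ES3. A pair of neighbouring megabases of chromosome 10, from 79 to 80 Mb and from 80 to 81 Mb, held 70 and 71 ES1 peaks, and the latter had the greatest covered length of all, 242 kb or 24.2% of its bases. Chromosome 5 from 115 to 116 Mb followed with 67 peaks, chromosome 7 from 29 to 30 Mb with 64 and chromosome 4 from 132 to 133 Mb with 62. By covered length the first 3 were the same megabases of chromosomes 10 and 7, with 242, 233 and 222 kb. These 6 were chosen for their ES1 peaks, so the lower numbers of ES2 and ES3 in them are a description only.

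Rich megabases adjoined one another. The 493 megabases of 20 or more ES1 peaks fell into 265 unbroken runs, of which 51 were at least 3 Mb long and 161 were single. The longest run was chromosome 4 from 128 to 142 Mb, with 534 ES1 peaks, 459 of ES2 and 291 of ES3. Chromosome 15 from 75 to 86 Mb held 398 ES1 peaks, chromosome 2 from 25 to 33 Mb held 294 and chromosome 17 from 23 to 30 Mb held 291. Across pairs of megabases, the peak number of 1 and that of its neighbour were related with Pearson's r = 0.51 over 2387 pairs, falling to 0.23 at a distance of 3 Mb and 0.10 at 5 Mb. In ES3 these values were 0.48, 0.22 and 0.10. Neighbouring bins share chromosome and sequence composition, so these are descriptions only.

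Some megabases held several wide domains. The 557 ES1 peaks of at least 10 kb had their midpoints in 356 megabases (14.8%), and 52 megabases with 3 or more of them held 176. The most, 6, lay between 165 and 166 Mb of chromosome 2, a megabase of 36 ES1 peaks, and 5 lay in each of chromosome 2 from 32 to 33 Mb, chromosome 3 from 88 to 89 Mb, chromosome 10 from 80 to 81 Mb and chromosome 11 from 97 to 98 Mb. Peaks of any width were concentrated as well, and whether wide domains were more so was not tested.

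Long stretches of the chromosomes held no ES1 peak. Gaps of at least 1 Mb numbered 442 and together took up 927 Mb, or 37.5% of chromosomes 1 to 19, and 20 were at least 5 Mb long. The longest was chromosome 15, 13103111 to 22966038, of 9.86 Mb, with 1 ES2 peak and no ES3 peak inside. Chromosome 14, 87855863 to 96917178, was 9.06 Mb long with 2 ES2 peaks, and chromosome 5, 77789413 to 86600902, 8.81 Mb long with 1 ES2 and 2 ES3 peaks. Chromosome 7, 39038640 to 46799778, spanned 7.76 Mb, chromosome 1, 108657200 to 115858733, 7.20 Mb and chromosome 1, 24116222 to 30860661, 6.74 Mb. Each of these 6 gaps held 1 or 2 ES2 peaks and at most 2 of ES3.

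The other lists were sparse in the same stretches. Of the 442 long ES1 gaps, 138 held no ES2 peak and 307 no ES3 peak. The peaks they did hold numbered 504 in ES2, or 2.38% of that list, and 161 in ES3, or 1.32%, in 37.5% of the length. By chromosome, long ES1 gaps took up from 23.4% of chromosome 19 to 46.7% of chromosome 14.

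ES1 covered more than ES3 in most megabases where either had a peak. Of these 1925 megabases, ES1 covered at least 2-fold more than ES3 in 1578, or 82.0%, and ES3 at least 2-fold more than ES1 in 27, or 1.40%. In 302 of the 1925 ES3 had no peak, so any ES1 length counted there as at least 2-fold. Where both lists had a peak the median fold of ES1 over ES3 was 2.82 (middle 50% from 2.18 to 3.99, over 1604 megabases). The fold over ES2 was smaller, with a median of 1.36. Of 1977 megabases, 17.7% were at least 2-fold higher in ES1 and 5.67% at least 2-fold higher in ES2. Among the 1977, 110 had no ES2 peak and 71 had no ES1 peak. Over all of chromosomes 1 to 19 the lists covered 63.3, 46.2 and 22.6 Mb, and these shares were not corrected for that.

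The largest excess of ES1 over ES3 in kb lay in the richest megabases: chromosome 10 from 80 to 81 Mb with 242 kb against 95.9 kb, chromosome 10 from 79 to 80 Mb with 222 against 76.6 kb, and chromosome 7 from 52 to 53 Mb with 233 against 88.3 kb. Their folds, 2.53, 2.90 and 2.64, lay near the median fold. The other 2 of the 5 largest had larger folds, chromosome 8 from 125 to 126 Mb with 181 against 47.4 kb (3.81-fold) and chromosome 2 from 32 to 33 Mb with 192 against 61.7 kb (3.11-fold).

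ES3 covered more than ES1 in 52 of the 1604 megabases with peaks of both, and in 19 where ES1 had no peak. Those with the largest folds were poor in peaks. The 27 with at least 2-fold more in ES3 held at most 3 ES1 peaks and 5 ES3 peaks each, and 19 of them had no ES1 peak. The largest difference lay on chromosome 5 from 15 to 16 Mb, with 2.90 kb in ES1, 13.7 kb in ES2 and 18.4 kb in ES3. ES3 had 3 peaks there within 15113820 to 15136419, of which the widest, 13184 bp, held 173 reads (148 to 201). ES2 had a peak of 12033 bp with 112 reads (92.2 to 135) at the same place, and ES1 a peak of 1338 bp, 15120935 to 15122272, with 21 reads (13.0 to 32.1). On chromosome 4 from 146 to 147 Mb ES1 covered 9.80 kb and ES3 13.0 kb, and on chromosome 9 from 3 to 4 Mb 30.3 and 33.3 kb. The last 2 of the 5 largest, chromosome 3 from 45 to 46 Mb and chromosome 15 from 26 to 27 Mb, stood at 0.902 against 3.64 kb and at 0 against 2.66 kb.

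The lead of ES1 over ES3 in number was greatest in poor megabases. Megabases were classed by their ES2 peaks, a list that enters neither number. With 1 to 2 ES2 peaks, ES1 had 755 peaks and ES3 257, a ratio of 2.94 (2.55 to 3.40). The ratio was 2.87 (2.63 to 3.15) with 3 to 5 ES2 peaks, 2.55 (2.39 to 2.72) with 6 to 10, 2.17 (2.09 to 2.26) with 11 to 20, 1.98 (1.89 to 2.07) with 21 to 30 and 1.78 (1.70 to 1.85) with 31 or more. In the 540 megabases with no ES2 peak it was 4.44 (3.08 to 6.57), on 160 and 36 peaks. With all lists at 12239 peaks the ratio at 1 to 2 ES2 peaks was 1.57 by score and 1.12 by reads, and at 31 or more 0.763 and 0.942. Lists of equal length have no lead in number overall by construction. A ratio above 1 in some classes then requires ratios below 1 in others. The values at equal length therefore describe only how the peaks kept were spread over the classes, and the other classes were not run.

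Covered length showed less of this difference, and ES1 peaks were wider in rich megabases. The ratio of covered lengths was 3.21 at 1 to 2 ES2 peaks and 2.52 at 31 or more. Covered length per peak in ES1 went from 1547 to 2919 bp between these classes and in ES3 from 1416 to 2055 bp. The ES1 median width was 1264 bp (1194 to 1373) at 1 to 2 ES2 peaks and 1954 bp (1919 to 1999) at 31 or more, and peaks of at least 5 kb were 1.72% and 14.7%. Median reads were 14 and 17.

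ES1 peaks of rich megabases were also found in ES3 more often. The share was 26.6% (23.5 to 29.9) at 1 to 2 ES2 peaks, 31.5% (29.9 to 33.1) at 6 to 10 and 45.7% (44.4 to 46.9) at 31 or more. With at least 50% of both peaks required it was 16.7%, 16.7% and 22.6%. Width moves with these classes, and so does the number of ES3 peaks, from 0.633 per megabase at 1 to 2 ES2 peaks to 25 at 31 or more. Where ES3 peaks are denser, an ES1 peak meets one more often by position alone. The parts of width and of ES3 density in the difference were not tested.

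**Figure D4:**
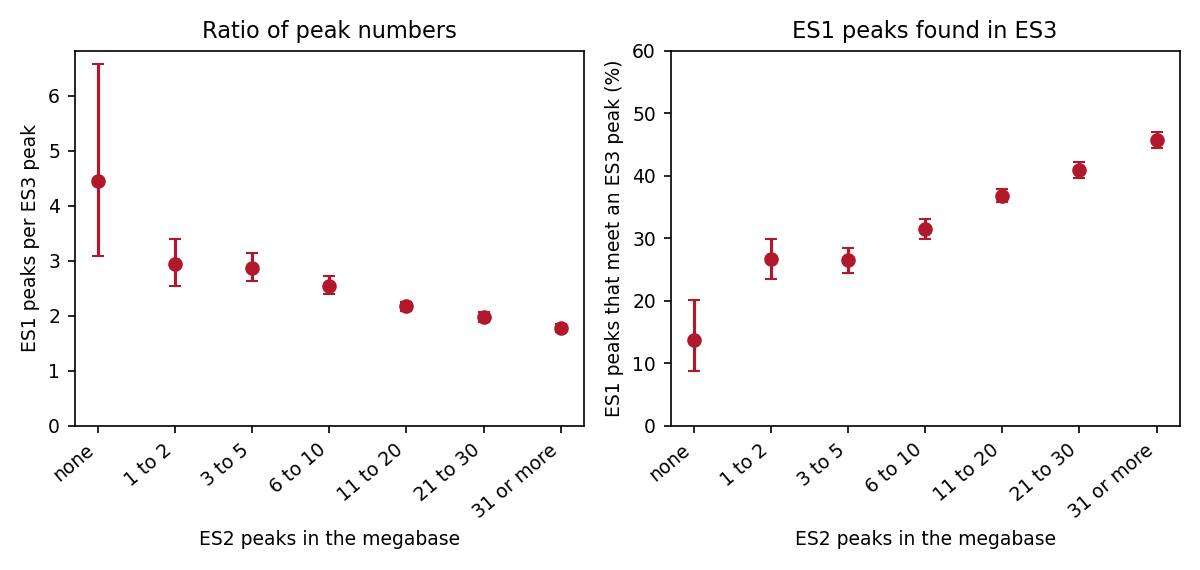
Megabases classed by their number of ES2 peaks (horizontal axes), with exact binomial 95% intervals as bars. Left, ES1 peaks per ES3 peak, which falls from 4.44 to 1.78; right, the share of ES1 peaks that meet an ES3 peak (%), which climbs from 13.8% to 45.7%.

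Chromosomes differed in how densely ES1 marked them. Chromosome 11 had the most ES1 peaks per Mb, 14.5 (13.8 to 15.2), followed by chromosome 19 with 13.5 and chromosome 17 with 13.2. Chromosome 3 had the fewest, 7.92 (7.49 to 8.37), next to chromosome 1 with 8.04, and the intervals of these last 2 overlap. The covered share ran from 1.87% of chromosome 1 to 3.76% of chromosome 11. Peaks per Mb and reads per kb moved together over the 19 chromosomes, with r = 0.95 and rho = 0.93, and peaks per Mb of ES1 and ES3 with r = 0.88 and rho = 0.89. Chromosomes are not independent, and reads in peaks enter both measures of the first pair.

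Denser chromosomes had wider ES1 peaks on the whole, with r = 0.73 and rho = 0.83 between peaks per Mb and median width over the 19 chromosomes. Chromosome 8 had the largest share of ES1 peaks of at least 5 kb, 14.2%, at 11.6 peaks per Mb, and chromosome 16 the smallest, 6.43%, at 9.49. The median width was largest on chromosome 4, at 1892 bp, and smallest on chromosome 13, at 1491 bp. Peaks of at least 10 kb numbered 53 of 1788 on chromosome 4, 50 of 1531 on chromosome 8 and 40 of 1154 on chromosome 15. Chromosome 16 had 10 of 933 and chromosome 19 had 10 of 828. Chromosomes differ in length and in peak number, so the counts alone do not rank them. ES1 had 2.51 peaks for each ES3 peak on chromosome 2 and 1.76 on chromosome 6, the extremes of the 19.

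ES1 peaks were denser toward the distal ends. Mouse autosomes carry the centromere at one end, where the numbering starts. The last 10 whole megabases of the 19 chromosomes averaged 14.9 ES1 peaks, the first 10 after 3 Mb 8.38, and those between 10.5, and 10.0% of the last, 20.5% of the first and 21.8% of the others were empty. The last 10 exceeded the first 10 on 16 of 19 chromosomes, the exceptions being chromosomes 3, 17 and 19. Chromosome 4 stood at 24.3 against 3.9 and chromosome 5 at 21.0 against 3.0, while chromosome 19 stood at 9.6 against 27.9. ES2 and ES3 showed the same direction, 12.6 against 6.82 and 7.25 against 3.86.

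**Figure D5:**
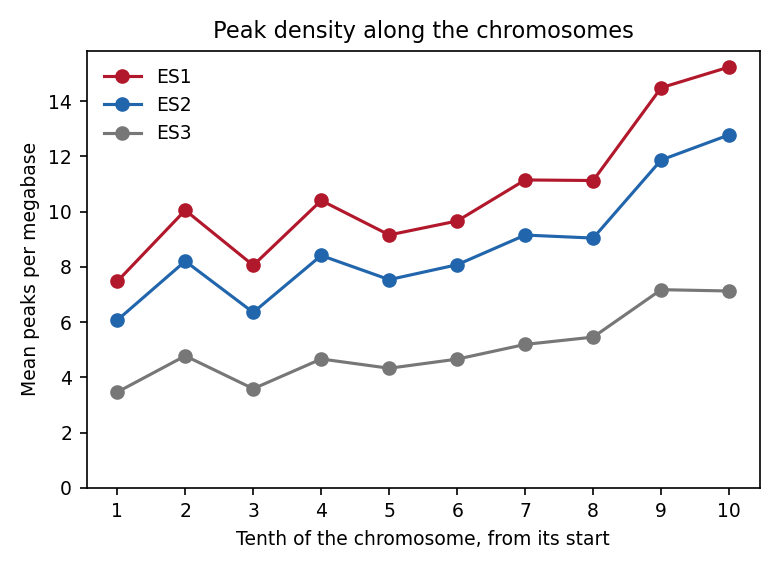
Mean number of peaks per megabase in each 10% of the chromosome (horizontal axis, from the centromere end after the first 3 Mb), over chromosomes 1 to 19. ES1 lies between 7.47 and 11.1 in the first 8 parts and at 14.5 and 15.2 in the last 2, and the ES2 and ES3 curves also have their highest values in the last 2 parts.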

How the data were processed

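Per the submitters' processing notes, Bowtie aligned the reads to mm9; its version and the peak caller are not given in the sources. The score per peak, used as deposited by the authors, has no unit in the files. Score times inner length was, in 100% of peaks, a whole multiple of a unit particular to the list and chromosome (tolerance 0.001), and the multiple was taken as reads, an assumption. Chromosome lengths and total reads came from the ratios of these units between the lists. Widths are end minus start, and printed starts count from 1. Peaks were binned by midpoint and overlapped at 1 bp or more. Intervals are exact binomial (Clopper-Pearson; order statistics for medians; for a ratio of numbers, from the share) or exact Poisson for reads and for peaks per Mb. Code was tested on simulated data. Python 3.11.15, numpy 2.4.6, pandas 2.3.3, scipy 1.17.1 and matplotlib 3.10.9 were used. Regions named are the 8 widest peaks, the 8 with most reads, 5 highest scores, 6 clusters by covered length and 3 by peaks, 6 megabases by peaks and 3 by covered length, 6 longest gaps and 5 largest differences each way; runs, the megabases with most wide domains and the domains without an ES3 peak were added. The members, rules and lists were chosen with earlier results of these data known. The gene lists planned (pluripotency, epiblast, germ layers, trophoblast, fibroblast, blood, housekeeping) were not run, since no gene models of mm9 were used here.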

Additional observations from a re-analysis of the deposited data

Results flagged for a closer look

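The ES1 list also holds 414 peaks on chromosome X, of 26292 in all, which the comparisons above leave out. They were flagged only as data not otherwise used. The other lists hold such peaks as well: ES2 has 21543 peaks with chromosome X and 21202 without it, and ES3 has 12391 and 12239.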

How the results depend on the processing

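The alternatives gave 43 values: 12 close to the main value (inside its interval, or a count within a factor of 1.5), 30 that moved and 1 that reversed. Covered length has no interval, so even small changes in it were counted as moved. Some values were set by the alternative itself, such as the number of peaks when 50% of the list is kept. The tally is therefore a count of labels only. Merging peaks within 1 kb gave a covered length of 63.4 Mb, and leaving out the loci of highest score 63.3 Mb. Keeping 50% of ES1 left 12939 peaks, with a median width of 1124 bp and 24.5 Mb covered by score, and 2362 bp and 42.6 Mb by reads. A width of at least 10 kb gave 557 peaks. The share of ES1 peaks in clusters was 34.8% with gaps up to 5 kb, 77.9% up to 25 kb, 35.1% with lists of equal length by score and 46.7% by reads. The ES1 minus ES3 difference in that share, 15.7 percentage points, became 11.4 with gaps up to 5 kb, -11.6 with equal lists by score, a reversal, and 0.025 with equal lists by reads; the cause was not tested. Empty bins were 9.69% at 2 Mb, 34.2% at 500 kb, 27.6% with the list shortened by score and 32.0% by reads. The richest 10% of bins held 33.3% of peaks at 2 Mb, 41.7% at 500 kb, 37.9% by score, 42.4% by reads, and 43.6% of the covered length. With at least 50% of both peaks shared, ES3 met 16.7% of ES1 peaks in megabases of 1 to 2 ES2 peaks and 22.6% at 31 or more. The ratio of ES1 to ES3 peaks was 1.57 by score and 1.12 by reads in the former, and 0.763 and 0.942 in the latter; this last alternative was chosen after seeing the data.

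The fewest reads behind an ES1 peak were 8 to 10 by chromosome, at a mean of 0.970 reads per kb, and a place with fewer reads is not shown to be unmarked. The alternatives for gene starts and gene lists were not run. No paired analysis was possible because the lists carry no replicate numbers.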
